A study of Mus musculus with 42 samples.

Results

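In E3.5 trophectoderm, 5482 genes outside a list of X-linked genes had a summed allelic expression of at least 5 FPKM, and they are described here by how much of that expression came from the father's allele. The stage table held 24083 genes, of which 1052 were on the X list. Of the other 23031, 11660 were listed at 0 for both alleles in trophectoderm and 5889 lay above 0 but under 5 FPKM. FPKM is the number of fragments per kilobase of transcript, scaled to library size. The paternal share of a gene was its paternal FPKM divided by the sum of both alleles, in percent. A gene was counted as skewed when this share was 10% or less (maternal) or 90% or more (paternal), and as equally skewed in E6.5 epiblast when it was past the same limit there with at least 5 FPKM. Reference names placed 5470 of the members on chromosomes 1 to 19 and none on X or Y, and 12 were not matched.

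The trophectoderm column pooled 3 wild type female samples from the cross C57BL/6N X PWK/PhJ, in which the maternal allele is C57BL/6N and the paternal allele PWK/PhJ. The columns set beside it in the same table came from wild type females of that cross. They were inner cell mass of the same day (2 samples), 8-cell embryos (3), morulae (3), the E6.5 tissues extraembryonic ectoderm (2), visceral endoderm (3) and epiblast (1), and yolk sac of E9.5 (1). A separate table held morulae of the same cross: control males (4 samples), control females (3) and Xp XRRa KO females (4), in which XRRa, a region of the paternal X chromosome, is deleted. Each group had 1 column per allele, so there was no spread between samples, and every value below is the authors' pooled value with no test. The cross went in 1 direction only, so parent of origin and strain of origin cannot be told apart for any gene below. Read depth was not known, because the tables gave no counts.

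The trophectoderm is the outer epithelium of the blastocyst, which mediates implantation and gives rise to the placenta, while the inner cell mass forms the embryo and yolk sac. Most autosomal genes use both parental copies. Imprinted genes use mainly one, either because DNA methylation set in the egg or sperm marks a copy, or because Polycomb's repressive mark H3K27me3 laid down in the oocyte keeps the maternal copy silent in the early embryo and, for a few genes, in the extraembryonic lineages.

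Most marker genes followed the labels of the columns. Of 29 trophectoderm markers, 26 were higher in trophectoderm than in inner cell mass, Krt7 was listed at 0 in both, and 2 were lower: Hand1 (0.0140 FPKM against 5.04) and Ezr (13.8 against 59.5). Trophectoderm had 292 FPKM of Gata3 against 71.8 in inner cell mass, 101.1 FPKM of Eomes against 8.31, 35.4 FPKM of Cdx2 against 12.2 and 1502 FPKM of Krt8 against 519.7. Of 16 inner cell mass genes, 15 were lower in trophectoderm and Zfp42 was listed at 0 in both, with Nanog at 30.7 FPKM against 157, Sox2 at 0.410 against 6.89 and Fgf4 listed at 0 against 25. Of 25 genes of cumulus, uterine and blood cells, 19 were listed at 0 in trophectoderm and 1, the complement gene C1qa, reached 5 FPKM. Listings at 0 also occurred for genes that most cells use. Uqcrc2 and Dctn5, which encode a respiratory chain subunit and a dynactin subunit, were listed at 0 for both alleles in all 11 columns, and Ndufab1 was at 0 in trophectoderm but at 211 FPKM in extraembryonic ectoderm.

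Both parental alleles contributed nearly equally to most autosomal genes. The median paternal share over the 5482 members was 49.0%, with an interval of 48.7 to 49.2% for the median over genes and quartiles of 42.9 and 54.6%. Between 40 and 60% lay 3818 members, and between 25 and 75% lay 5113. Slightly more genes were under 50% (2995) than over it (2464). Of the summed FPKM of all members, 49.0% was paternal.

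**Figure D1:**
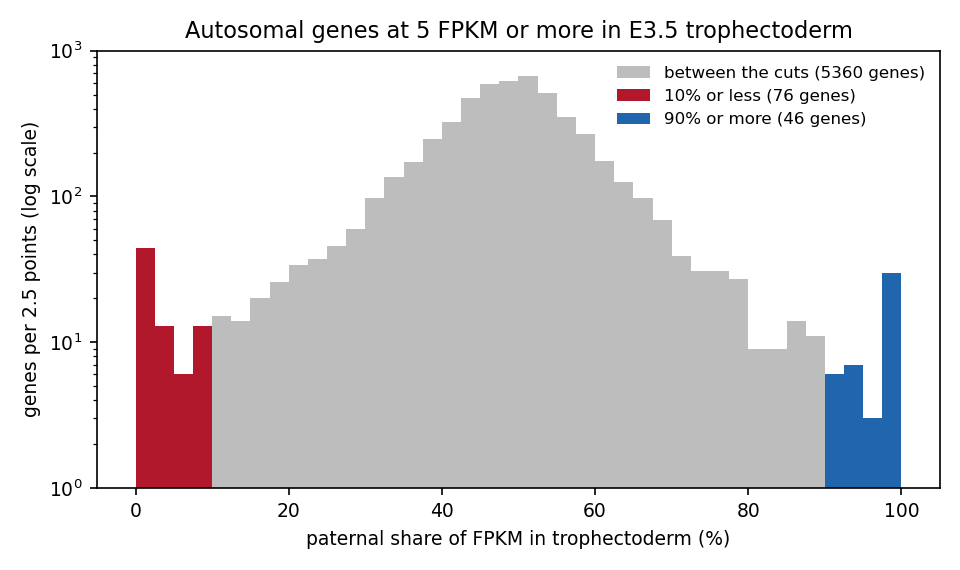
Histogram of the paternal share (x axis, percent) of the 5482 autosomal genes with at least 5 FPKM in trophectoderm, with the number of genes per bin of 2.5 points on a logarithmic y axis. The bulk peaks near 50%, and counts rise again at both ends, where 76 genes lie at 10% or less (red) and 46 at 90% or more (blue).

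Skewed genes made up 2.23% of the members. Those at 10% or less numbered 76 (1.39%) and those at 90% or more 46 (0.839%). The distribution did not thin out evenly toward its ends: 146 genes lay above 10% and under 25%, 101 above 75% and under 90%, and 31 had the paternal and 17 the maternal allele listed at 0 (together 0.876% of the members). At the limits themselves, Ndrg2 (9.87%) and Bri3 (10%) lay just inside 10% and E330020D12Rik (10.1%) and Zfp317 (10.4%) just outside. At the other end, Hist1h2ah (90.3%) and Elf5 (90.5%) lay just inside 90%, and Mapt (89.98%) and Eno1 (89.2%) just outside.

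Genes imprinted through oocyte H3K27me3 were on the paternal allele in trophectoderm. Slc38a4, a sodium-coupled amino acid transporter of the placenta, had 0.0356 FPKM on the maternal and 52.3 FPKM on the paternal allele, a paternal share of 99.9%. Gab1, an adaptor protein of receptor tyrosine kinase signalling needed for placental growth, had 1.76 FPKM on the maternal and 18.8 FPKM on the paternal allele (91.4%). Sfmbt2, a Polycomb group protein needed for trophoblast development, had 0.0384 FPKM on the maternal and 5.54 FPKM on the paternal allele (99.3%). Of the 5 listed genes, these 3 reached 5 FPKM. Their median share was 99.3%, against 49.0% over all members, and 0.839% of all members were at 90% or more. With 1 FPKM added to each allele, Slc38a4 was at 98.1%, while Gab1 (87.8%) and Sfmbt2 (86.3%) were under the limit. Smoc1, a secreted calcium-binding protein, was at 95.3% with only 1.68 FPKM, and Jade1 was listed at 0. The list was written with the earlier results of these data known.

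Sequences upstream of their start sites are shown because DNA methylation, the mark of the other class of imprinted genes, is placed on CpG sites. Each window holds the 250 bases before the start in RefSeq's annotation of GRCm38.p6, 5′ to 3′ on the gene's strand, with every CG in capitals; the motif searched was CG, which reads the same on both strands. The windows were chr15:97055957-97056206 on the minus strand for Slc38a4, chr8:80880520-80880769 on the minus strand for Gab1, chr2:10370201-10370450 on the plus strand for Sfmbt2 and chr14:120275419-120275668 on the plus strand for Mbnl2, a candidate described below.
Slc38a4: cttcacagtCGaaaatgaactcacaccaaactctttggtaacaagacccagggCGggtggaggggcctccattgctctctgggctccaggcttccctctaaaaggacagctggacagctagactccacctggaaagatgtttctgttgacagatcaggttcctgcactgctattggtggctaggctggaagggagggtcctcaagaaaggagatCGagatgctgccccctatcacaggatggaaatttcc
Gab1: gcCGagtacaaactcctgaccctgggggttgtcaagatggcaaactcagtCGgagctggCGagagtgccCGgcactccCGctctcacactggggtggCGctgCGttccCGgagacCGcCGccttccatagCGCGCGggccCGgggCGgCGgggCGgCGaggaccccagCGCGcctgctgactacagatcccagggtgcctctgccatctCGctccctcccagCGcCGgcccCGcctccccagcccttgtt
Sfmbt2: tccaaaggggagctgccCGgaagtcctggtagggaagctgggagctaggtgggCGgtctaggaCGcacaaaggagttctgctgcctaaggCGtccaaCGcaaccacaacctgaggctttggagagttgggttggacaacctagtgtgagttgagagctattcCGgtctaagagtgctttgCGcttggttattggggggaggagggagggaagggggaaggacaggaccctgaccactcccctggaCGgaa
Mbnl2: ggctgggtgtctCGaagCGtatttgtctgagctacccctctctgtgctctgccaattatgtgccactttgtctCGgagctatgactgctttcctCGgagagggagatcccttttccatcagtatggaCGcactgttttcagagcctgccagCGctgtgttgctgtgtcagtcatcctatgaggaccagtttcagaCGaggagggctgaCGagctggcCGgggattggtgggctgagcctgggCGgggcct
Slc38a4 had 3 CpG sites in its window, Sfmbt2 8, Mbnl2 10 and Gab1 24. Over 32851 windows of the same length the median was 6 sites. As many sites as in the Slc38a4 window, or more, were found in 71% of windows, for Sfmbt2 in 43%, for Mbnl2 in 37.8% and for Gab1 in 12%. The paternally skewed genes included a CpG-poor and a CpG-rich start. Some of these genes have other annotated starts, and which one was used is not in the tables.

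The paternal shares of these genes were not the same in all lineages. Slc38a4 was also past 90% in inner cell mass (0.354 maternal and 37.6 paternal FPKM, 99.1%) and extraembryonic ectoderm (96.5%), but had 1.83 maternal and 5.29 paternal FPKM in the single epiblast sample, a share of 74.3%. Gab1 was at 98.9% in morulae, 84.2% in inner cell mass, 97.4% in extraembryonic ectoderm and 72.5% in visceral endoderm, where its maternal allele reached 6.48 FPKM. In epiblast its total was 0.697 FPKM, too low for a share to be read. Sfmbt2 was at 100% in inner cell mass, 99.5% in extraembryonic ectoderm and 97.2% in visceral endoderm. The share was thus 90% or more in extraembryonic ectoderm for all 3 genes, and Slc38a4, the only one measured in epiblast, was under that limit there.

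Of 24 candidate genes for this kind of imprinting before implantation, 4 reached 5 FPKM in trophectoderm and 2 of these were past 90%, where 0.839% of all members were. Mbnl2, a splicing regulator, had 0.192 FPKM on the maternal and 10.5 FPKM on the paternal allele (98.2%). In extraembryonic ectoderm it had 6.83 maternal and 8.95 paternal FPKM, a share of 56.7%, so that it differed there from Slc38a4. Slc38a1, another amino acid transporter, was listed at 0 on the maternal and 8.68 FPKM on the paternal allele in trophectoderm, and at 7.92 and 8.31 FPKM in epiblast (51.2%). The other 2 were the hypoxia factor Epas1 (69.1%) and the RNA-binding protein gene Rbms1 (52%), which lay under the limit. Bbx (95% of 1.93 FPKM) and Runx1 (96.3% of 1.09 FPKM) were also paternal but at levels under the minimum.

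Slc38a1 and Slc38a4 were neighbouring members on chromosome 15, with 1 table gene between them, the amino acid transporter Slc38a2. Slc38a2 was at 2.26 FPKM in trophectoderm, all of it paternal. In inner cell mass Slc38a2 had 8.68 FPKM with the maternal allele again listed at 0. In epiblast both of its alleles were used, at 23.5 maternal and 34.2 paternal FPKM (59.3%), and the same held in extraembryonic ectoderm (55.4%) and visceral endoderm (50.8%). The skew of the 3 transporter genes did not extend to the nearest members on either side, Ano6 (48.9%) and Rpap3 (35.9%). Slc38a4 alone of the 3 stayed past 90% in extraembryonic ectoderm, where Slc38a1 had 5.28 maternal and 12.1 paternal FPKM (69.6%).

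Genes imprinted by DNA methylation were mostly under the minimum or listed at 0, as were most genes outside the X list. Of those 23031 genes, 11660 were listed at 0 and 5889 lay above 0 but under the minimum. Of 27 paternally expressed imprinted genes in the table, 11 were listed at 0 in trophectoderm. Such a listing does not show low expression: Snurf and Mcts2 were at 0 in all 11 columns, and Snrpn in 10 of them but at 61.2 FPKM in extraembryonic ectoderm. That value of Snrpn was listed on the maternal allele only (0% paternal), against the direction of its list. Only 2 reached 5 FPKM, with a median of 64.3%, and with a minimum of 1 FPKM the median was 97.6%. Impact, a regulator of the amino acid starvation response, had 1.86 FPKM on the maternal and 11.4 FPKM on the paternal allele (85.9%). Its share was higher in every other column, from 93.7% in visceral endoderm to 99.5% in control female morulae among those without the yolk sac, with 95.9% in epiblast. Inpp5f, an inositol phosphatase of which only some transcripts are imprinted, was at 42.7% in trophectoderm. Below the minimum, Peg3 (2.24 FPKM) and Mest (1.36 FPKM) were listed on the paternal allele only and Nnat was at 97.6%, while the growth factor gene Igf2 was at 52.9% of 1.36 FPKM.

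Of 32 maternally expressed imprinted genes, 8 reached 5 FPKM and their median share was 39.5%. The sterol reductase gene Dhcr7, of the last step of cholesterol synthesis, was the only one of the 8 past a limit (12.5%, against 2.23% of all members), with 7.81 FPKM on the maternal allele and 0 listed on the paternal. It was at 10% or less in each of the other columns that reached 5 FPKM, epiblast included (5.26%). The signal peptide peptidase gene H13 was next at 20.6%. Commd1 (37.3%), Tssc4 (39%), Nap1l4 (40%), Gnas (45.8%), Ube3a (56.6%) and Osbpl5 (65.9%) used both alleles. Several of these are imprinted only in particular tissues or transcripts, and levels per gene do not separate transcripts. The growth inhibitor Cdkn1c and the non-coding H19, which mark the imprinted cluster of chromosome 7, were under 1 FPKM.

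**Figure D2:**
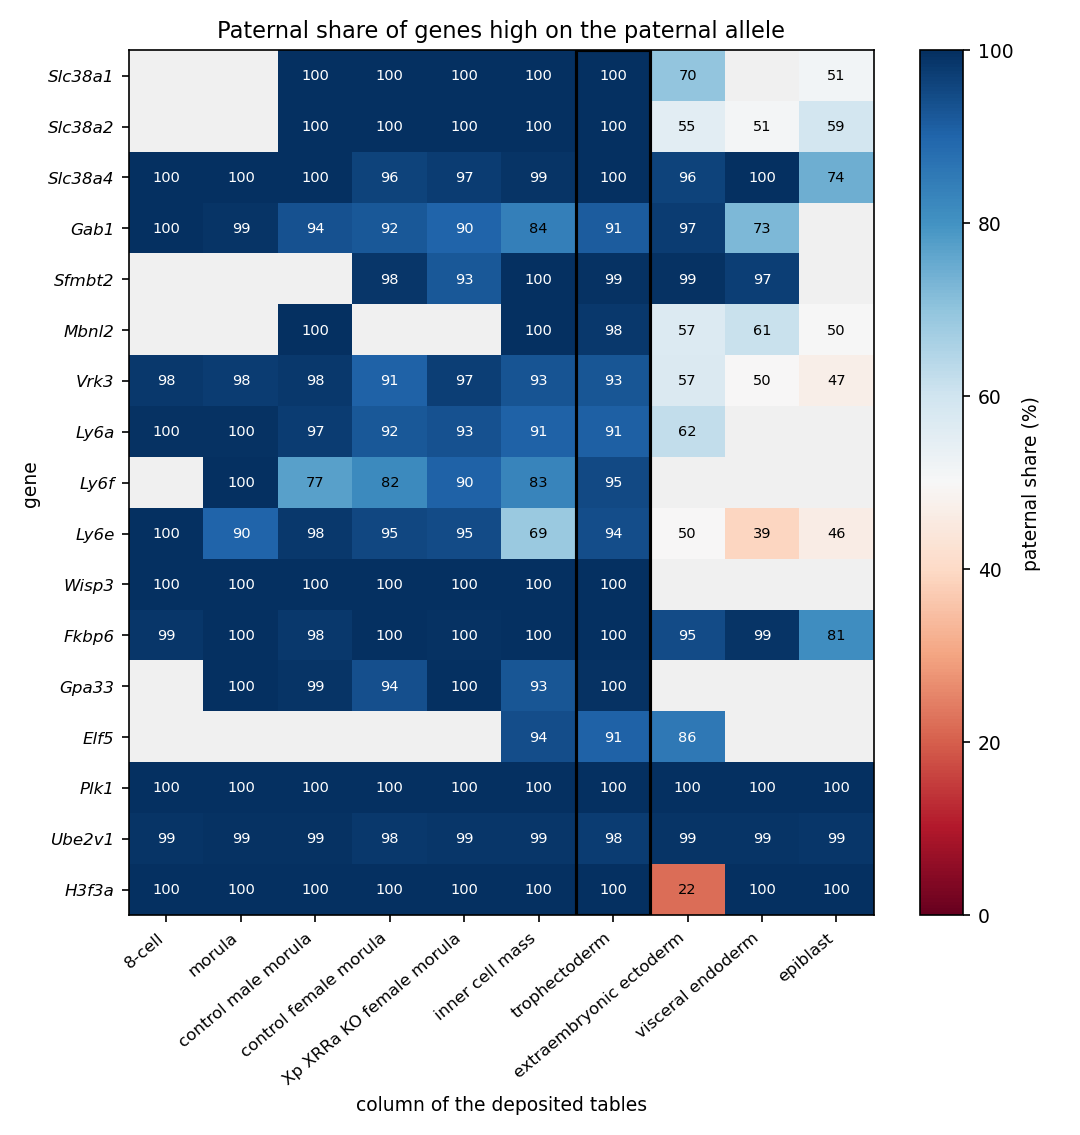
Paternal share (percent, number and colour in each cell) of 17 genes (rows) that were high on the paternal allele in trophectoderm or lie in the Slc38a cluster, over 10 columns of the deposited tables; grey marks a total under 1 FPKM and the black frame the trophectoderm. Slc38a1, Slc38a2 and Vrk3 go from 90% or more in trophectoderm to 70% or less at E6.5, whereas Plk1 and Ube2v1 stay at 98 to 100% in every column shown. Ly6e, at only 1.16 FPKM in trophectoderm, is at 70% or less at E6.5 and already in inner cell mass (68.7%).

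Other paternally skewed genes had high paternal shares in the columns before implantation. Vrk3, a kinase of the vaccinia-related family, had 1.67 FPKM on the maternal and 21.8 FPKM on the paternal allele in trophectoderm (92.9%). It was at 98.1% in 8-cell embryos, 97.6% in morulae and 93% in inner cell mass, and between 90.6% and 98.3% in the columns of the separate morula table. At E6.5 both alleles were used, with shares of 57.1% in extraembryonic ectoderm, 49.6% in visceral endoderm and 47.2% in epiblast. Its total was 23.5 FPKM in trophectoderm, 16.2 in epiblast and 16.4 in extraembryonic ectoderm, and in epiblast the maternal allele stood at 8.58 FPKM. Vrk3 and Ly6a were the 2 skewed genes at 90% or more in all 6 other preimplantation columns and between 25 and 75% in each E6.5 column where they reached 5 FPKM. This pattern was defined after the values were seen.

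Ly6a, which encodes the surface antigen Sca-1, had 5.56 FPKM on the maternal and 53.8 FPKM on the paternal allele (90.6%). Its total was higher in inner cell mass (235 FPKM, 90.6%), and extraembryonic ectoderm kept 15.2 FPKM with a share of 62.3%. Its neighbour Ly6f, of the same family of small anchored surface proteins, had 0.957 FPKM on the maternal and 19 FPKM on the paternal allele (95.2%) and was at 82.9% in inner cell mass. Of 9 Ly6 genes on chromosome 15 in the table, 4 were above 1 FPKM in trophectoderm and all 4 were at 90% or more. The family and this lower minimum were chosen after values were seen, and Ly6a and Ly6f are among the 4. Of all 8083 genes with that lower minimum, 1.71% were at 90% or more. The other 2 of the 4 Ly6 genes were low, Ly6c1 at 1.28 FPKM (100%) and Ly6e at 1.16 FPKM (94.3%). Ly6e was expressed from both alleles in epiblast, with 12.4 maternal and 10.6 paternal FPKM, and was already at 68.7% of 9.91 FPKM in inner cell mass. The nearest members on either side of the pair, Slc45a4 (49.9%) and Eef1d (51.8%), were even.

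Wisp3, a secreted protein of the CCN family, was almost entirely paternal, at 0.146 maternal and 62.9 paternal FPKM in trophectoderm. Its share was 99.7% or more in every column that reached 5 FPKM, and it was under that minimum in the columns of E6.5. Gpa33, a cell surface antigen of epithelia, had 0.188 FPKM on the maternal and 38.5 FPKM on the paternal allele (99.5%) and was at 92.8% in inner cell mass. Fkbp6, a meiotic co-chaperone, had 0.0561 maternal and 21.4 paternal FPKM (99.7%). It was past 90% in each of the columns before implantation and in extraembryonic ectoderm (94.6%), and reached 81.2% in epiblast. Ctgf, chosen after its values were seen, is a CCN family member and a target of the Hippo pathway that separates the blastocyst lineages. It had 0.101 FPKM on the maternal and 8.70 FPKM on the paternal allele in trophectoderm (98.8%) but 24 and 87.7 FPKM in inner cell mass (78.5%).

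Genes that define the trophectoderm and reached 5 FPKM used both alleles, with 1 exception. Of 29 marker genes, 26 reached 5 FPKM, and their median share was 51.1%. Past a limit was 1 of the 26 (3.85%), near the 2.23% of all members. Under the minimum, Krt19 was at 90.1% of 2.09 FPKM. Krt18 (43.3%), Krt8 (41.8%), Tspan8 (50.9%) and the transcriptional inhibitor Id2 (53.2%) were the most abundant, and the lineage factors Cdx2 (58%), Gata3 (44.5%) and Eomes (51.4%) lay close to them. The tight junction genes Cldn6 (80.2%) and Cldn4 (74.5%) leaned to the paternal allele and the water channel Aqp3 (27.9%) to the maternal. Elf5, a transcription factor of trophoblast stem cells, was the only one of the 26 past a limit, with 1.53 FPKM on the maternal and 14.6 FPKM on the paternal allele (90.5%). Inner cell mass had only 4.29 FPKM of Elf5 (94.3%), and in extraembryonic ectoderm it had 17.8 maternal and 107 paternal FPKM, a share of 85.7%, just under the limit.

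On the maternal side, the most abundant skewed gene was Gabarapl2, a protein of autophagosome membranes, with 2462 FPKM on the maternal and 121 FPKM on the paternal allele (4.67%). Its share was between 4.69% and 10.8% in the other columns without the yolk sac. The pluripotency factor gene Pou5f1 had 83.9 maternal FPKM and 0 listed on the paternal allele in trophectoderm. Its paternal share was under 1% in every column with at least 5 FPKM, with 336 maternal against 0.391 paternal FPKM in inner cell mass and 79.1 against 0.273 in epiblast. The other pluripotency genes measured here used both alleles, among them Dppa5a (53.3%), Sall4 (55.9%), Tfcp2l1 (58.8%) and Nanog (57.5%). Their list had 8 members and a median of 56.7%, with Pou5f1 alone past a limit (12.5%, against 2.23% of all members).

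Several maternally skewed genes were expressed before implantation and were under 5 FPKM in epiblast. Guca1a, an activator of guanylate cyclase, was at 106 FPKM in morulae, 18.5 in inner cell mass and 12.6 in trophectoderm, where 12.2 FPKM was maternal and 0.395 paternal (3.14%). Pramel4, of a gene family expressed in the germ line and early embryo, had 257 FPKM in morulae with a share of 21.9%, and 31 FPKM in trophectoderm with 4.08%. Asz1, a germ cell protein of the pathway of small RNAs that silences transposons, was at 26.2% in 8-cell embryos and 3.87% in trophectoderm. Khdc1a, of an oocyte-expressed family of RNA-binding proteins, was at 40.9% in 8-cell embryos and 7.89% in trophectoderm. In the 4 genes the share was lower in trophectoderm than in 8-cell embryos. Guca1a, Asz1 and Khdc1a were chosen after their values were seen. Maternal RNA inherited from the oocyte cannot be told apart from transcription of the maternal allele. In a list of oocyte and maternal-effect genes, 25 of 42 were listed at 0, as were 11660 of the 23031 genes outside the X list. None of its genes at 5 FPKM was past a limit, where 2.23% of all members were. There were only 5 such genes on the list, with a median of 56.6%. Of these, Dppa3, which protects the maternal genome from demethylation, had the lowest share (27.1%), followed by Khdc3 (47.5%), Ooep (56.6%), Dnmt3l (61.6%) and Spin1 (69.1%).

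P4ha2, a collagen prolyl hydroxylase, and Acsl6, a fatty acid ligase, were neighbouring members on chromosome 11. P4ha2 had 17.3 FPKM on the maternal and 0.533 FPKM on the paternal allele in trophectoderm (2.99%), and its share was 2.14% in morulae and 23.3% in inner cell mass. Acsl6 had 13.1 FPKM on the maternal and 0.876 FPKM on the paternal allele (6.28%) and reached 5 FPKM in no other column. The next 2 members beyond P4ha2 also leaned to the maternal allele, Pdlim4 with 33.6 and 10.1 FPKM (23.1%) and Slc22a4 with 12.7 and 2.76 FPKM (17.8%). In inner cell mass Pdlim4 was at 58.4%. The organic cation transporter gene Slc22a5, which had 173 FPKM in trophectoderm, was at 64.8%, and beyond Acsl6 the next member, Rapgef6, was at 45.8%. Pdlim4, Slc22a4 and Slc22a5 were chosen after their values were seen. The 3 table genes between P4ha2 and Acsl6, the cytokine genes Il3 and Csf2 among them, were listed at 0.

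Of the 122 skewed genes, 13 (10.7%) reached 5 FPKM in trophectoderm only. The same share over all members is not given here, so nothing about skew is read from this count. These 13 were 12 of the 76 maternal genes (15.8%) and 1 of the 46 paternal genes (2.17%). They included Tnfrsf9, a costimulatory receptor, with 20.8 FPKM on the maternal and 0.621 FPKM on the paternal allele (2.90%), Plat, tissue plasminogen activator, with 7.42 FPKM on the maternal and 0.152 FPKM on the paternal allele (2.01%), and Rab15, a regulator of endosome recycling (4.58%). Aqp7, a glycerol channel, had 6.48 maternal FPKM and 0 listed on the paternal allele. The paternal one was C1qa (10.5 FPKM, 0 listed on the maternal allele), a complement gene of macrophages; the other genes of its marker list were under 5 FPKM, and the list summed to 12.8 FPKM in trophectoderm and 10.7 in inner cell mass. Whether other cells contributed to these values was not tested. Saa3, an acute-phase protein, reached that level in inner cell mass as well and was at 1.45% of 8.85 FPKM in trophectoderm and 0% of 23.9 FPKM there. These genes were named after their values were seen.

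**Figure D3:**
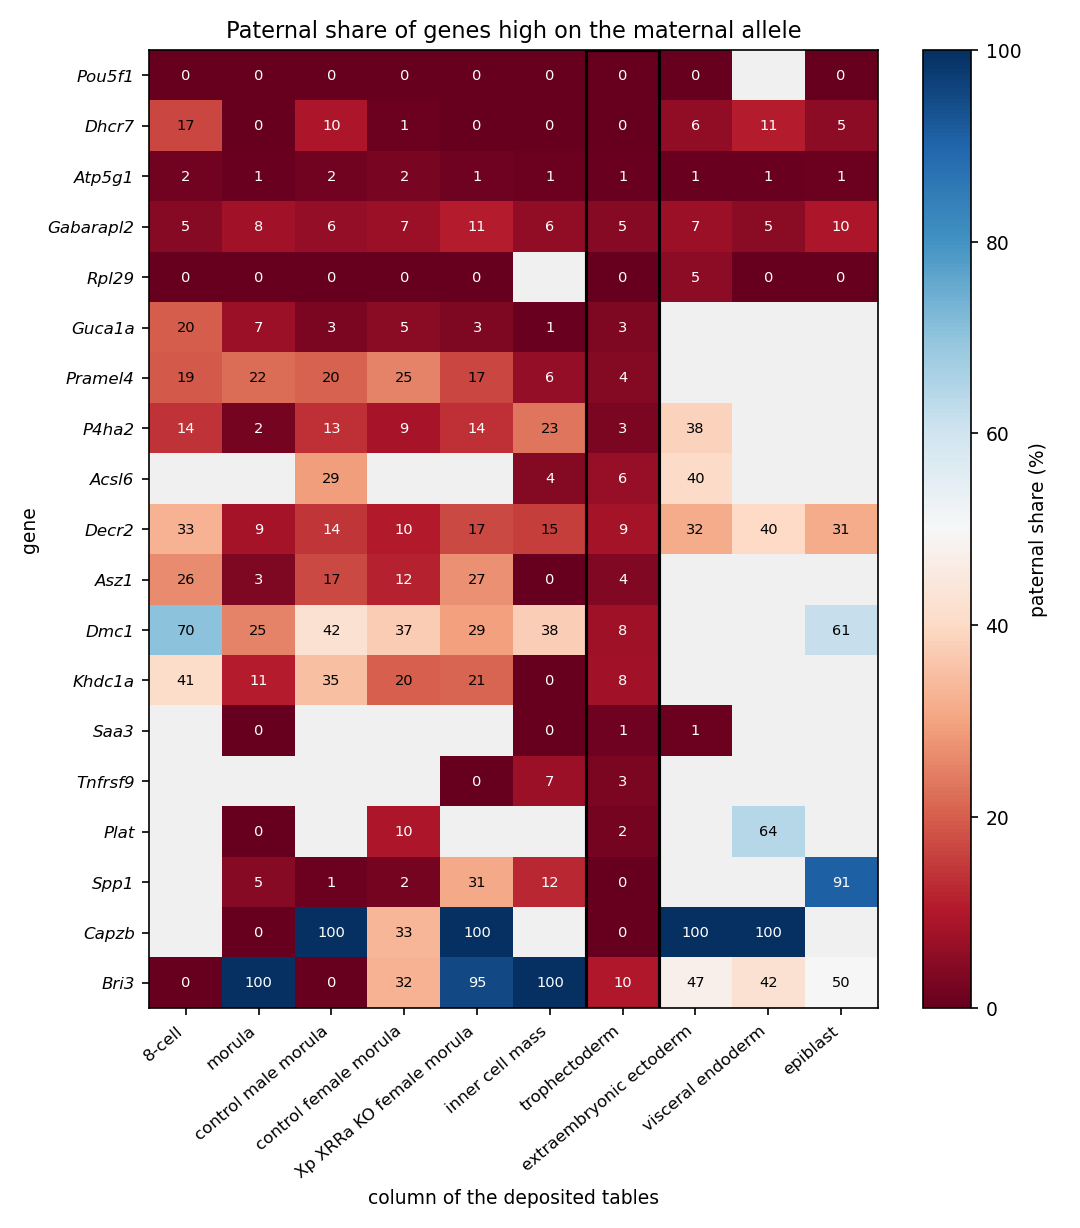
Paternal share (percent, number and colour in each cell) of 19 genes (rows) at 10% or less in trophectoderm over 10 columns of the deposited tables; grey marks a total under 1 FPKM and the black frame the trophectoderm. Pou5f1, Atp5g1 and Rpl29 are low in every cell shown, Pramel4 and Asz1 are lower in trophectoderm than in 8-cell embryos, and Capzb and Bri3 go from 0 to 100% between columns.

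Epiblast gave a direct comparison for 53 of the 122 skewed genes, since 69 were under 5 FPKM there. Of the genes at 5 FPKM in epiblast, 1.92% were past a limit. Of the 122 genes skewed in trophectoderm, 31 were equally skewed in epiblast, and 22 were measured there and were not. On the maternal side, 21 were equally skewed, 11 were not and 44 were not measured, and 1.11% of all epiblast genes were at 10% or less. On the paternal side these numbers were 10, 11 and 25, and 0.807% of all epiblast genes were at 90% or more. Over the 4122 members measured in both columns, the median of trophectoderm minus epiblast share was -0.257 points, and 2972 genes (72.1%) lay within 10 points. A difference of over 40 points was found for 42 genes, 22 higher and 20 lower in trophectoderm.

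**Figure D4:**
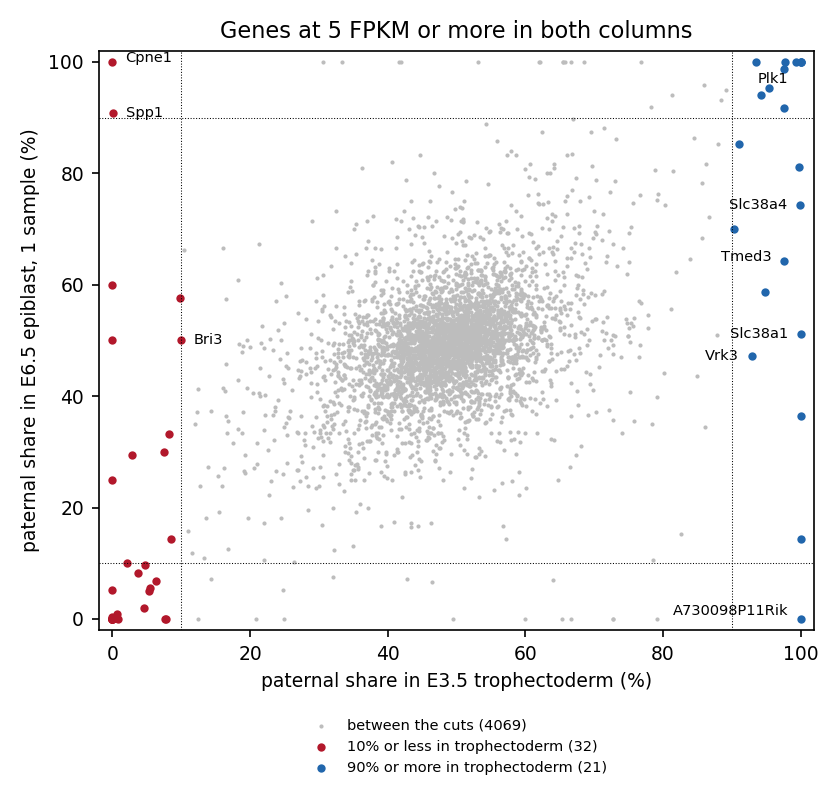
Paternal share in E3.5 trophectoderm (x axis, percent) against that in the single E6.5 epiblast sample (y axis, percent) for genes with at least 5 FPKM in both, with dotted lines at 10 and 90%. Of the 32 red points (10% or less in trophectoderm), 21 lie at the bottom left, of the 21 blue points (90% or more) 10 lie at the top right, and Spp1, Cpne1 and A730098P11Rik sit in the opposite corners.

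The genes equally skewed in epiblast included abundant genes of basic cell functions. Atp5g1, a subunit of mitochondrial ATP synthase, had 599 FPKM on the maternal and 4.10 FPKM on the paternal allele in trophectoderm (0.681%) and was at 0.976% in epiblast. Rpl29, a ribosomal protein gene, had 379 maternal FPKM with the paternal allele listed at 0 in both columns. Gabarapl2 was at 9.68% in epiblast, the pyrophosphatase gene Ppa1 at 0% in trophectoderm and 0% in epiblast, and the dynein light chain gene Dynll1 at 0 in both. Among other columns, however, Dynll1 ranged from 0 to 88.9%. The microRNA entry Mir682 and the gene model Gm13826 were also listed at 0 on the paternal allele in both. Hist1h4d, a histone H4 gene, was at 2.18% in trophectoderm and at 10% in epiblast, which is the limit itself.

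On the paternal side, the histone variant gene H3f3a had 493 FPKM with the maternal allele listed at 0, and was at 100% in epiblast but at 22.1% in extraembryonic ectoderm. The mitotic kinase gene Plk1 had 33.5 paternal FPKM and 0 listed on the maternal allele, with 0 and 91.3 FPKM in epiblast. Ube2v1, a partner of ubiquitin-conjugating enzymes, had 2.21 FPKM on the maternal and 91.7 FPKM on the paternal allele (97.7%) and was at 98.6% in epiblast. Also equally skewed were 1810037I17Rik (97.6% and 91.7%), Gm8615 (99.4% and 100%) and Ap1s3, an adaptor subunit of vesicle coats (95.4% and 95.3%). The splicing regulator gene Rbm4 was at 100% in both, but at 0% of 13.8 FPKM in visceral endoderm. The tubulin ligase-like gene Ttll3, at 93.5% in trophectoderm and 100% in epiblast, was at 0% in 8-cell embryos and 24.5% in morulae.

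Of the genes skewed in trophectoderm but not in epiblast, some kept the direction. Mrpl33, a mitochondrial ribosomal protein gene, was at 8.47% in trophectoderm and 14.3% in epiblast. Hist1h2ag, a histone H2A gene, was at 91.1% and 85.2%. Rpl31-ps12 was at 0% and, at the edge of that range, 25%.

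Others used both alleles in epiblast. Besides Slc38a1 and Vrk3, the vesicle transport gene Tmed3 had 0.821 FPKM on the maternal and 33.5 FPKM on the paternal allele in trophectoderm (97.6%) and 2.66 and 4.79 FPKM in epiblast (64.3%). Pcbd1, which recycles a cofactor of aromatic amino acid hydroxylases, was at 94.9% in trophectoderm and 58.7% in epiblast. Crym, a thyroid hormone-binding protein, had 5.16 paternal FPKM in trophectoderm and was at 36.4% in epiblast. On the maternal side, the glutathione transferase gene Gstk1 (7.55% and 30%) and the membrane traffic genes Ergic1 (8.23% and 33.1%) and Scoc (0 and 60%) also lay in that range. So did Ndrg2 (9.87% and 57.6%) and Bri3 (10% and 50%). The glycolytic enzyme gene Gapdh was listed at only 9.13 FPKM in trophectoderm, none of it paternal, and at 25.6 maternal and 25.6 paternal FPKM in epiblast.

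The largest differences between trophectoderm and epiblast included 3 genes that were past opposite limits. Spp1, which encodes the secreted adhesion protein osteopontin, had 81 maternal and 0.119 paternal FPKM in trophectoderm and 0.718 and 7.11 FPKM in epiblast. In inner cell mass, where its total was 569 FPKM, its share was 12.4%. Cpne1, a calcium-dependent membrane-binding protein gene, was listed on the maternal allele alone in trophectoderm (9.77 FPKM) and on the paternal alone in epiblast (22.4 FPKM). A730098P11Rik was listed on the paternal allele alone in trophectoderm (14.7 FPKM) and on the maternal alone in epiblast (12.8 FPKM). Dhrs7, a dehydrogenase gene, was at 100% of 5.30 FPKM and 14.3%. Of members between the limits in trophectoderm, H2-Ke6 (30.7%) and Faim (41.7%) were at 100% in epiblast. The heme oxygenase gene Hmox1 (79.2%), Tmem234 (72.7%) and Akr1b3 (72.7%) had their paternal allele listed at 0 in epiblast, and Gstm5 (78.6%) was at 10.5% there.

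In inner cell mass, morula and the other E6.5 tissues, between 34.6 and 77.8% of the skewed genes measured there, by direction, were past the same limit. Of the maternal genes, 32 of 49 were at 10% or less in inner cell mass (65.3%), where 1.33% of all its genes were. They were 60.4% of the genes at that limit in inner cell mass that were measured in trophectoderm. Of the paternal genes, 18 of 31 were at 90% or more there (58.1%, against 0.824% of all its genes). They were 69.2% of the 26 genes at that limit in inner cell mass that were measured in trophectoderm. The whole lists of inner cell mass held 74 and 46 genes. In morulae 35 of 45 maternal genes were past the same limit (77.8%, background 1.7%) and 17 of 25 paternal genes (68%, background 1.06%). They were 57.4% of its 61 maternal and 56.7% of its 30 paternal genes also measured in trophectoderm. Its whole lists held 87 and 54 genes. Extraembryonic ectoderm descends from part of the trophectoderm. In it 24 of 47 maternal genes (51.1%, background 1.77%) and 15 of 32 paternal genes (46.9%, background 1.31%) were past the same limit. They were 85.7% of its 28 maternal and 75% of its 20 paternal genes also measured in trophectoderm. Its whole lists held 104 and 77 genes. In visceral endoderm 23 of 39 maternal (59.0%, background 1.02%) and 9 of 26 paternal genes (34.6%, background 0.501%) were past the same limit. They were 74.2% of its 31 maternal and 47.4% of its 19 paternal genes also measured in trophectoderm. Its whole lists held 55 and 27 genes. Yolk sac was of little use for this purpose, since 35.6% of its own genes were past a limit. The inner cell mass and trophectoderm samples come from embryos of the same day, and the labels do not say whether they share embryos.

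The whole distribution was also close to that of other columns, and not only of the nearest lineages. Within 10 points of trophectoderm lay 77.8% of 4875 genes measured in inner cell mass as well, 81.0% of 4708 in extraembryonic ectoderm and 63.5% of 3684 in 8-cell embryos. Visceral endoderm had 79.9% of 4365 genes, morulae 75.1% of 4476 and epiblast 72.1% of 4122, while yolk sac had 24.8% of 2087. The median difference was 0.124 points to inner cell mass and 1.42 points to 8-cell embryos, with trophectoderm higher in both.

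Skew in every column was seen for 19 genes, which reached 5 FPKM in at least 4 other columns and were past the same limit in each. The 10 maternal ones were Atp5g1, Rpl29, Mir682, Pou5f1, Gm13826, Srp54c, D630045M09Rik, 1700030C10Rik, Dhcr7 and 2610524H06Rik. The 9 paternal ones were Ube2v1, Wisp3, Gpa33, Plk1, Gm8615, Hnrnpa3, Hddc3, Sfmbt2 and Gm6654. Without the yolk sac column the number was again 19, of which 18 were the same genes: Sfmbt2, the one H3K27me3-imprinted gene of the group, was then measured in 3 other columns only and dropped out, and Rps15a-ps6 came in. Of the group, Dhcr7 was the one maternally expressed imprinted gene. The RNA-binding protein gene Hnrnpa3 had 0.190 FPKM on the maternal and 8.18 FPKM on the paternal allele (97.7%), and the phosphohydrolase gene Hddc3 0.197 and 5.75 FPKM (96.7%). Srp54c, a gene for a subunit of the signal recognition particle, was at 0.855%, and its neighbouring member on chromosome 12, the near-identical Srp54a, at 7.83%. Reads of such copies may be split between them in ways the tables do not show.

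The opposite pattern, past a limit in trophectoderm and between 25 and 75% in every other column with 5 FPKM (at least 3 of these), was seen for 3 genes: Gapdh, Pcbd1 and Dmc1. The meiotic recombinase gene Dmc1 had 10.2 FPKM on the maternal and 0.867 FPKM on the paternal allele in trophectoderm (7.81%), and was at 37.7% in inner cell mass and 25.1% in morulae. These patterns over columns were defined after the values were seen.

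A direction that changed from column to column was found for 19 skewed genes, which were past the opposite limit in at least 1 other column, yolk sac left out. In 16 of the 19, an allele was listed at 0 in trophectoderm, against 48 of all 122 skewed genes (39.3%). The actin capping gene Capzb had 211 maternal and 0 paternal FPKM in trophectoderm, but was at 100% in both extraembryonic tissues of E6.5. The splicing factor gene Snrpf had 182 FPKM, all maternal, and was at 100% in morulae. Bri3 was at 0 in 8-cell embryos, 100% in morulae and in inner cell mass, and 10% in trophectoderm. On the paternal side, Xbp1, a transcription factor of the unfolded protein response, had 30.5 paternal FPKM in trophectoderm and was at 0% in inner cell mass. The gene model Gm12191 had 740.3 paternal FPKM and was at 0% in extraembryonic ectoderm. For genes of this kind the share in a single pooled column did not carry over to the next.

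Other abundant genes with an allele listed at 0 were not measured in epiblast. The selenoprotein gene Gpx4, which protects lipids from oxidation, had 605 maternal FPKM, and it was at 0% in morulae and inner cell mass but 61.1% in control female morulae. The cyclophilin gene Ppia had 2218 paternal FPKM and was at 98.5% in extraembryonic ectoderm. Ost4, a small subunit of the enzyme that attaches sugars to proteins, had 272 paternal FPKM and was between 43.1% and 100% elsewhere. Phf5a (84 FPKM), Lyrm4 (39.7 FPKM) and Mtx1 (37 FPKM) were listed on the maternal allele alone in trophectoderm, but are among the genes that changed direction. Phf5a was at 100% in Xp XRRa KO female morulae, Lyrm4 at 100% in control male morulae and Mtx1 at 100% in inner cell mass. The gene 2200002D01Rik was at 2.56% in trophectoderm.

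Large families of basic cell machinery had median shares near 50%, each with 1 gene past a limit. Of 62 cytosolic ribosomal protein genes, with a median share of 49.1%, only Rpl29 was past a limit; Rps18 (40.5%), Rps29 (51.7%) and Rpl41 (75.2%) were among the most abundant others. Of 61 subunits of oxidative phosphorylation (median 49.5%) it was Atp5g1, beside Atp5b at 47.5%, Cox4i1 at 51%, Cox5a at 50.1% and Cox6c at 52.2%. Of 69 mitochondrial ribosomal proteins (median 50%) it was Mrpl33, beside Mrpl42 (56.1%) and Mrpl20 (46.9%). Of 38 proteasome subunits (median 48.5%) it was Psmb9, an interferon-inducible subunit of the immunoproteasome, with 6.07 paternal FPKM and 0 listed on the maternal allele. Psmb9 was at 76.7% in inner cell mass, and the constitutive subunits Psma7 (52%) and Psma1 (48.9%) were even. Of 56 Zfp zinc finger genes (median 48.7%) it was Zfp947 (0.412% of 6.70 FPKM). The 5 lists had between 1.45 and 2.63% of their members past a limit, near the 2.23% of all members. In the order given, 46, 50, 57, 35 and 38 of their members lay between 40 and 60%, where 69.6% of all members were. Primitive endoderm markers had none past a limit among 5 (median 45.6%), with Apoe at 87.9%, Dab2 at 45.6%, Apoa1 at 39% and Gata6 at 57%.

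Histone genes and gene models with provisional names held more skewed members. Of 23 histone genes, 5 were past a limit (21.7%, against 2.23% of all members), and the median was 47.1%. They were H3f3a, Hist1h2ah and Hist1h2ag on the paternal side and Hist1h4d and Hist1h4i on the maternal. Hist1h4d had 88.2 FPKM on the maternal and 1.96 FPKM on the paternal allele, and Hist1h2ah 7.39 FPKM on the maternal and 69 FPKM on the paternal allele. The replication-independent H2afz (47.1%) and H3f3b (33.8%), which encodes the same protein as H3f3a, were between the limits. Of 189 members named by number or clone, 17 were past a limit (8.99%), 11 maternal and 6 paternal. Values per gene are uncertain for any member with near-identical copies, skewed or not, and the part of such copies in these counts was not tested.

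The share of sequence that a gene has in common with other genes went along with skew. For each member the longest GENCODE M21 transcript was cut into stretches of 50 bases, and the percentage of these that also occur in a transcript of another gene was counted. At least 10% was shared by 57 of 121 skewed genes with a transcript (47.1%), against 22.5% of the genes between the limits. Of the genes equally skewed in epiblast, it was 23 of 30 (76.7%). Read the other way, 1.53% of 2614 genes that shared none were skewed, 1.51% of 1593 that shared less than 10%, 2.96% of 1012 with 10 to under 50%, and 10.9% of 248 with 50% or more. Slc38a4, Slc38a1, Sfmbt2, Elf5, P4ha2, Guca1a and Dhcr7 shared none, Mbnl2 0.888% and Gab1 4.45%. High values were found for Ube2v1 (91%), Hist1h2ah (91.7%), Srp54c (93.9%), Pramel4 (92.8%) and Gapdh (82.2%), and Pou5f1 had 16%. Skewed histone genes ranged from 10.1% for Hist1h4d to 91.7% for Hist1h2ah, and the provisional models 1810037I17Rik (6.73%) and D630045M09Rik (0%) were low. The part of shared sequence in the skew was not tested. It was measured in C57BL/6J reference transcripts, and the genome of PWK/PhJ was not used here.

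**Figure D5:**
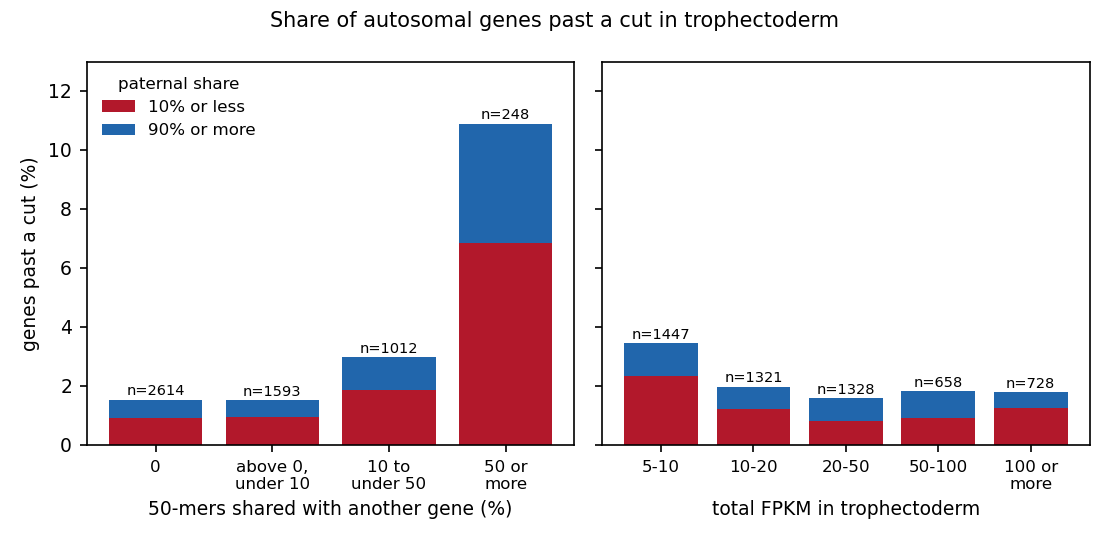
Percentage of autosomal genes past a limit (y axis; red, 10% or less; blue, 90% or more, stacked) by the percentage of a gene's 50-base stretches shared with another gene (left) and by total FPKM in trophectoderm (right), with the number of genes over each bar. The left bars go from 1.53% of genes with no shared stretch to 10.9% of those with 50% or more, and the right bars from 3.46% at 5 to 10 FPKM to 1.79% at 100 FPKM or more.

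Skew was more frequent among weakly expressed genes. Between 5 and 10 FPKM 3.46% of 1447 genes were past a limit, and in the higher classes between 1.58 and 1.97%, with 1.79% of 728 genes at 100 FPKM or more. The quartiles of the share were 40.2 and 55.9% in the lowest class and 44.9 and 53.1% in the highest. Skewed genes were found on all 19 autosomes, from 0.481% of the members on chromosome 19 to 4.63% on chromosome 13. Neighbouring members past the same limit were few: there were 6 such pairs and no longer run. Besides the pairs of Slc38a, Ly6, Srp54 and P4ha2 genes, they were Ocm with Bri3 on chromosome 5 and Crym with Plk1 on chromosome 7. Ocm, a calcium-binding protein, was at 0.658% of 7.22 FPKM, and Bri3 changed direction between columns as described. Between Crym and Plk1 lay 26 table genes that were all listed at 0 in trophectoderm, Uqcrc2, Ndufab1 and Dctn5 among them.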

How the data were processed

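Smart-seq2 libraries, made from RNA captured by oligo-dT per the labels' protocols, keep no strand. The authors deposited FPKM for the maternal and the paternal allele, already pooled into 1 column per allele and group. Per the submitters' processing notes, Trim Galore 0.6.4, HISAT2 2.2.0 and StringTie 2.1.1 were used with the assembly mm9. How reads were assigned to alleles is not given in the sources used here, and depth is unknown.

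Shares were computed on FPKM as deposited, with no pseudocount and a minimum total of 5 FPKM; 5 summary lines were left out. Shares were rounded to 3 decimals before they were set against the limits, because the deposited values carry few digits; this placed Hist1h4d among the genes equally skewed in epiblast. Columns were not averaged, and the 2 tables were normalized separately, so levels were compared within a table only. With pooled columns no test, SD or replicate check could be made. The interval of the median is a 95% order-statistic interval over genes. Chromosome and neighbour order came from the RefSeq annotation of GRCm38.p6, of which no coordinates other than those of the printed windows are given. Longest transcripts of GENCODE M21 were read every 5 bases on both strands for shared 50-base stretches. The code for the shares and for the shared stretches was run on simulated data with known answers. The simulated shares carried no noise, so this checked the code and not calls made from few reads. Alternatives were the minimum, the limits, FPKM plus 1, a rescaling of the alleles, other columns and 100-base stretches.

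The genes, lists and limits were chosen with earlier results of these data known. Genes named were, in each direction, up to 12 with the highest total that were measured and not equally skewed in epiblast, up to 8 equally skewed and up to 8 not measured there, up to 6 with the largest difference to epiblast, those skewed in every column, list members, neighbouring pairs and the genes nearest the limits; others are said to be chosen after their values were seen. Software was Python 3.11.15 with numpy 2.4.6, pandas 2.3.3, scipy 1.17.1 and matplotlib 3.10.9.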

Additional observations from a re-analysis of the deposited data

Results flagged for a closer look

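For 3 genes with at least 5 FPKM in trophectoderm and epiblast the alleles were past opposite limits. The paternal share in trophectoderm minus that in epiblast was -90.7 points for Spp1, -100 points for Cpne1 and 100 points for A730098P11Rik. These differences are between 1 pooled column and 1 sample and were not tested. Cpne1 and A730098P11Rik each had an allele listed at 0 in both columns.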

How the results depend on the processing

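Of 40 values under alternative settings, 21 stayed within the spread allowed and 19 moved. The number of genes at 10% or less, at 90% or more and equally skewed in epiblast was 76, 46 and 31. With a minimum of 1 FPKM the first 2 were 177 and 138, and the median of paternally expressed imprinted genes was 97.6% in place of 64.3%. With a minimum of 20 FPKM the 3 numbers were 26, 20 and 16. On FPKM plus 1 for each allele they were 37, 22 and 15, and the median of H3K27me3-imprinted genes was 87.8%. Rescaling the paternal FPKM to the maternal sum put the median of all members at 49.9%. Limits of 5 and 95% left 19 genes equally skewed, and limits of 20 and 80% gave 152, 89 and 51. With inner cell mass in place of epiblast, 50 genes were equally skewed. Leaving out genes that shared 10% or more of their 50-base stretches, an alternative chosen after seeing the data, gave 40, 25 and 8. No paired analysis was possible because the columns pool the samples of a group and carry no replicate numbers, and for the same reason no sample could be left out in turn. Epiblast is 1 sample, and the depth behind each allele's FPKM is unknown.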
